A study of Mus musculus with 14 samples.

Results

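The carboxylesterases examined here are 10 genes that are expressed in mouse liver: Ces1c, Ces1d, Ces1e, Ces1f, Ces1g, Ces2a, Ces2c, Ces2e, Ces3a and Ces3b. They were found through the RefSeq accessions of the array probes, and they are 10 of the 19,751 genes with a named probe on the array. Liver RNA came from CD-1 mice of both sexes without treatment. The 6 groups were males and females at 3 wk (M3 and F3), at 4 wk (M4 and F4) and at 8 wk (M8 and F8). RNA of 5 mice per pool at 3 wk, or of 6 mice per pool at 4 and 8 wk, was combined in 2 pools per group, so that the spread between single mice was not measured. Agilent 2-colour arrays set the groups against each other in 7 comparisons, of the sexes at each age (M3/F3, M4/F4 and M8/F8), of adult males with younger males (M8/M3 and M8/M4) and of adult females with younger females (F8/F3 and F8/F4), each with 2 arrays that held separate pools and exchanged dyes. The 12 pools served in several sets, so that comparisons that share a group are not independent of each other.

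Carboxylesterases are serine hydrolases that cleave ester, thioester and amide bonds. In the hepatocyte most of them lie in the lumen of the endoplasmic reticulum, where they hydrolyse ester drugs and other foreign compounds and take part in the turnover of triglycerides and cholesteryl esters. The mouse family arose by tandem duplication, so that its members lie side by side in gene clusters and resemble each other closely in sequence.

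The RefSeq annotation (GRCm38.p6) places all members on chromosome 8. Ces1d, Ces1e, Ces1f and Ces1g are direct neighbours in that order, Ces1c precedes them with 1 predicted gene between, and Ces3a and Ces3b are adjacent. Probe sequences were held for 2 of the 13 member probes, those of Ces1c and Ces1d. They are shown because both genes were lower in M8 liver, and because paralogues may share stretches of sequence. Capitals mark the longest run that the probes share, 17 of 60 bases, which begins at base 44 of the Ces1c probe and at base 18 of the Ces1d probe.

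Ces1c probe: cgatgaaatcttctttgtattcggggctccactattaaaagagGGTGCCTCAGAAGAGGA
Ces1d probe: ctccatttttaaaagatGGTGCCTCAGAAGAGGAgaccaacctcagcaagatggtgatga

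Values below are log2 ratios of M over F or of the older over the younger group, on the array of replicate 1 and then of replicate 2. A gene was called up regulated or down regulated at an adjusted p below 0.05 in limma if its ratio also exceeded 1.5 or was under 0.667 and the signal of at least 1 group was well above background on both arrays. All 13 member probes were well above background in both channels of all 14 arrays, so that all 10 members were tested in every comparison. A gene with several probes is represented by its brightest probe.

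More members were called between the sexes at the later ages. None of the 10 members was called in M3/F3, where 0.464% of all tested probes were called, and none had an unadjusted p below 0.05 in limma. The error-weighted test and the fit with the covariance of the shared pools also called 0 there. The lowest adjusted p was 0.211, and Ces1e was called on 1 array alone when M3/F3 replicate 2 was left out (0.59, adjusted p = 0.0492). In M4/F4, 3 members were up regulated in males, Ces1e, Ces1f and Ces3a, beside 1.44% of probes called. The fit with the covariance of the shared pools called 2 there, without Ces3a (adjusted p = 0.0508). In M8/F8, 7 members were called beside 6.31% of probes. Ces1e, Ces2a, Ces2c, Ces3a and Ces3b were higher in males, and Ces1c and Ces1d were higher in females. The median absolute log2 ratio of the members between the sexes was larger at each age, from 0.15 at 3 wk over 0.37 at 4 wk to 0.75 at 8 wk, compared with 0.07, 0.09 and 0.15 for all tested probes.

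**Figure D1:**
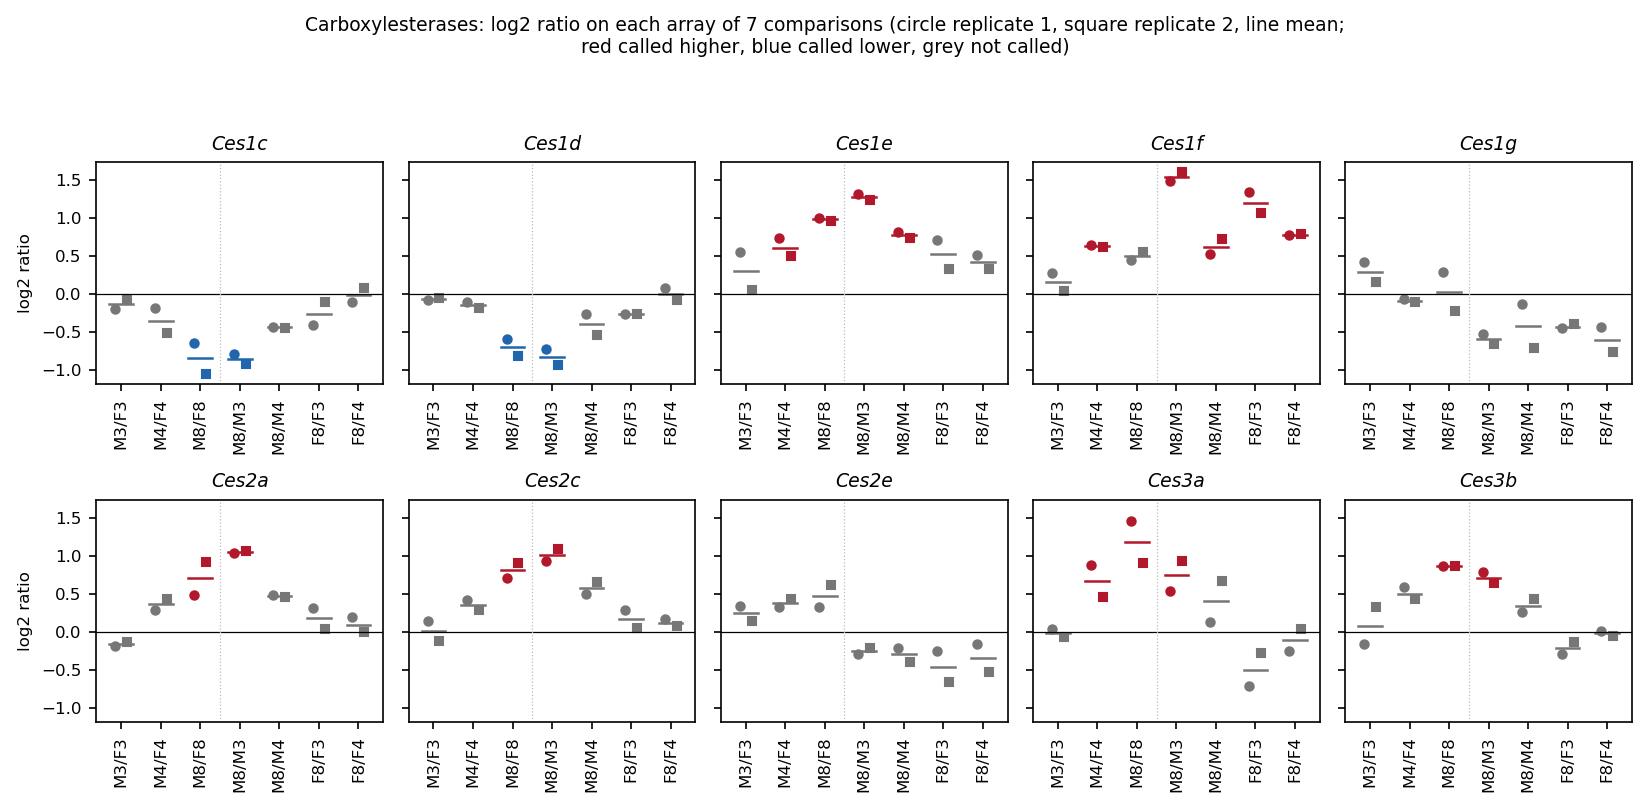
Log2 ratio (y axis) of each carboxylesterase on the 2 arrays of each of the 7 comparisons (x axis), with a line at the mean; red and blue mark genes called higher or lower. By their means, the panels of Ces1c and Ces1d run downwards from M3/F3 to M8/F8, and those of Ces1e, Ces2a, Ces2c, Ces2e, Ces3a and Ces3b run upwards. Ces1g and Ces2e hold grey points alone.

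More members were called with age in males than in females. In M8/M3, 8 members were called, 6 up regulated (Ces1e, Ces1f, Ces2a, Ces2c, Ces3a and Ces3b) and 2 down regulated (Ces1c and Ces1d), beside 16.8% of all tested probes. In M8/M4, Ces1e and Ces1f were up regulated, beside 10.1% of probes, which makes 2 of 10 members. Neither was called when M8/M4 replicate 2 was left out (Ces1e 0.83, adjusted p = 0.0662, and Ces1f 0.52, adjusted p = 0.0545), and Ces1e also lost its call without M8/M4 replicate 1 (0.72, adjusted p = 0.0944). In females Ces1f was the only member called by its brightest probe, in F8/F3 beside 10.8% of probes and in F8/F4 beside 5.41%, where the replicate block added Ces1g. One of 10 members is close to that background in F8/F3. The median absolute log2 ratio of the members was 0.84 in males (M8/M3) and 0.35 in females (F8/F3), compared with 0.25 and 0.21 for all tested probes.

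Whether the 3 to 8 wk change differed between the sexes was tested directly, as M8/M3 minus F8/F3. This interaction was called for 4 members, Ces2a, Ces2c, Ces3a and Ces3b, beside 3.22% of probes, and each had the greater value in males. Ces3a differed by 1.24 log2 (SE = 0.11, adjusted p = 0.00343), Ces3b by 0.93 (SE = 0.16, adjusted p = 0.0251), Ces2a by 0.88 (SE = 0.11, adjusted p = 0.0101) and Ces2c by 0.84 (SE = 0.13, adjusted p = 0.0201). The number called fell to 1, Ces3a, without M8/M3 replicate 2 or without F8/F3 replicate 2, and to 2, Ces2a and Ces3a, without M8/M3 replicate 1. Ces3a in turn lost its call with the covariance of the shared pools (adjusted p = 0.059) and without the dye term (adjusted p = 0.073). Ces3b also lost its call without F8/F3 replicate 1 (0.82, adjusted p = 0.134) and, at adjusted p = 0.0517, without either F8/F4 array. The 4 to 8 wk interaction was called for none of the 10 members by limma, by the error-weighted test or with the covariance of the shared pools, beside 1.34% of probes, although 5 members had an unadjusted p below 0.05.

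The males and the females of these age comparisons lay on different slides, since M8/M3 was on slides 1 and 2 and F8/F3 on slides 3 and 4. The same quantity can be formed within a slide as M8/F8 minus M3/F3, with the same direction of dyes. On slides 1 and 2 this gave 1.44 and 0.97 for Ces3a. For Ces3b it gave 1.02 and 0.54, for Ces2a 0.67 and 1.06, and for Ces2c 0.58 and 1.01. All of these 8 within-slide values lay above 0. They come from pools that the age comparisons used as well.

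**Figure D2:**
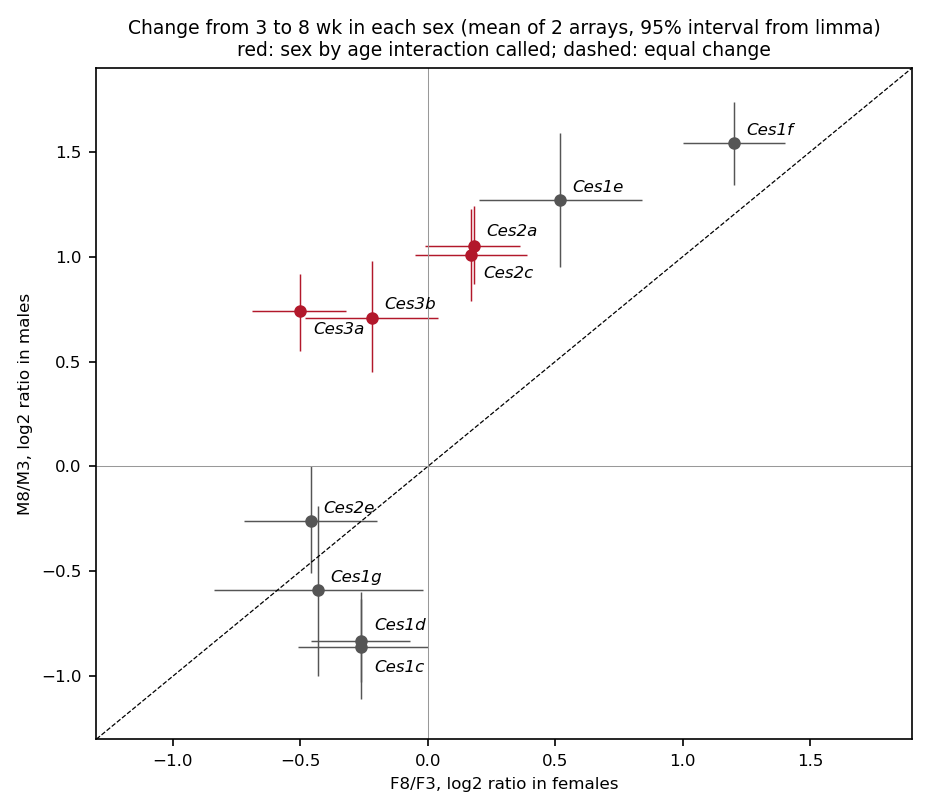
Change from 3 to 8 wk in females (F8/F3, x axis) against the change in males (M8/M3, y axis), as log2 ratios with 95% intervals from limma. Ces2a, Ces2c, Ces3a and Ces3b, with a called interaction, are red and lie above the dashed line of equal change, Ces1f lies high on both axes, and Ces1c and Ces1d lie below the line.

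Ces3a and Ces3b are liver esterases of the third subfamily. By the brightest probes, Ces3a had the largest sex difference among the members at 8 wk. Its M3/F3 ratios were 0.03 and -0.07, its M4/F4 ratios 0.88 and 0.45, and its M8/F8 ratios 1.46 and 0.90. The arrays thus lay around 0 at 3 wk and above 0 at both later ages. In males the M8/M3 ratios were 0.54 and 0.93, whereas in females the F8/F3 ratios were -0.72 and -0.28, so that the sexes moved in opposite directions on all 4 arrays. In M8/F8 Ces3a was 2.27-fold higher in males (SE = 0.08 log2, adjusted p = 0.000318). In F8/F3 it was 1.42-fold lower (-0.50, adjusted p = 0.00694), which was short of the fold threshold. The Ces3a probe had a dye effect of 0.20 log2 in favour of red. Without a term for it, adjusted p rose to 0.0805 in M4/F4, 0.0562 in M8/M3 and 0.073 for the interaction. With the covariance of the shared pools in the model, it rose to 0.0508 in M4/F4 and 0.059 for the interaction. With normexp and loess the M4/F4 value was 0.57, short of the fold threshold.

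The order of the groups shows the course of Ces3a. A level was estimated for each pool from the arrays of its replicate, relative to the mean of the 6 groups, with the dye effect removed. The pools of M8 lay at 0.68 and 0.69, those of M4 at 0.31 and 0.25, those of F3 at 0.04 and -0.07, those of M3 at -0.10 and 0.00, those of F4 at -0.42 and -0.37 and those of F8 at -0.52 and -0.50. F3 and M3 overlapped, and the other neighbours in this order did not.

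Ces3b, the adjacent gene, followed the same order with M3 and F3 exchanged, and its F4 and F8 pools overlapped. Its M8/F8 ratio was 0.86 on both arrays (1.81-fold, adjusted p = 0.00339), its M4/F4 ratios were 0.58 and 0.43 (1.42-fold, adjusted p = 0.0262), and its M3/F3 ratios were -0.16 and 0.32. The arrays at 8 wk agreed within rounding, and those at 3 wk lay on both sides of 0. The M8/M3 ratios of 0.79 and 0.64 (adjusted p = 0.00686) were no longer called without M8/M3 replicate 1 (0.65, adjusted p = 0.0724). The F8/F3 ratios were -0.30 and -0.14 (mean -0.22, 95% interval -0.48 to 0.04), which did not pass the test.

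Ces2a and Ces2c belong to the second subfamily, whose enzymes prefer substrates with a small acyl group and can hydrolyse diacylglycerols and triacylglycerols. Ces2a gave M8/M3 ratios of 1.04 and 1.06 and F8/F3 ratios of 0.31 and 0.04. It was thus higher at 8 wk on every one of these arrays, and by more in males. It was up regulated 2.07-fold in M8/M3 (adjusted p = 0.000439), whereas the F8/F3 mean of 0.18 had a 95% interval of -0.01 to 0.36. The M8/F8 ratios were 0.48 and 0.92 (1.63-fold, adjusted p = 0.00185), and without M8/F8 replicate 2 the value of 0.54 was short of the fold threshold. The pools of M8 lay at 0.58 and 0.73 and those of M3 at -0.38 and -0.42, the lowest of the 6 groups, and no neighbouring groups in the order M8, M4, F8, F4, F3, M3 overlapped.

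Ces2c is represented by the brightest of its 3 probes. The M8/F8 ratios were 0.71 and 0.90 (1.75-fold, adjusted p = 0.00215), the M8/M3 ratios 0.93 and 1.08 (2.01-fold, adjusted p = 0.000951) and the F8/F3 ratios 0.29 and 0.05. On this probe the 4 arrays of M8/F8 and M8/M3 lay above those of F8/F3. The M8/M4 ratios of 0.50 and 0.65 fell just short of the fold threshold (1.49-fold, adjusted p = 0.00793). M8 pools (0.68 and 0.75) and M4 pools (0.18 and 0.11) were the highest, and the pools of F4, F3 and M3 overlapped.

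The other Ces2c probes gave larger ratios. On the second probe, M8/M3 read 2.57 and 2.43, F8/F3 2.05 and 0.72 and M8/F8 0.96 and 1.77, and it was called in all of these and in M8/M4 (adjusted p from 0.00134 to 0.0135). The third probe was called in the same comparisons, with means of 1.39 in M8/F8, 2.65 in M8/M3, 2.06 in M8/M4 and 1.49 in F8/F3. The probe for Ces2b, a neighbouring member of the subfamily, had means of 1.45, 2.61, 2.07 and 1.5 in these comparisons. Over the 14 arrays the third Ces2c probe differed from the Ces2b probe by at most 0.09 log2 and the second by at most 0.19, while the brightest Ces2c probe differed from it by up to 1.83. The brightest Ces2c probe differed from the Ces2a probe by a median of 0.05 and at most 0.33. Which transcript each of these probes recorded was not tested, since their sequences were not used here. All 3 probes called Ces2c in M8/M3 and in M8/F8. Its interaction was called by the brightest probe alone, since the second gave 1.11 (adjusted p = 0.156) and the third 1.15 (adjusted p = 0.178), and its increase in F8/F3 was called by the 2 dimmer probes alone.

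**Figure D3:**
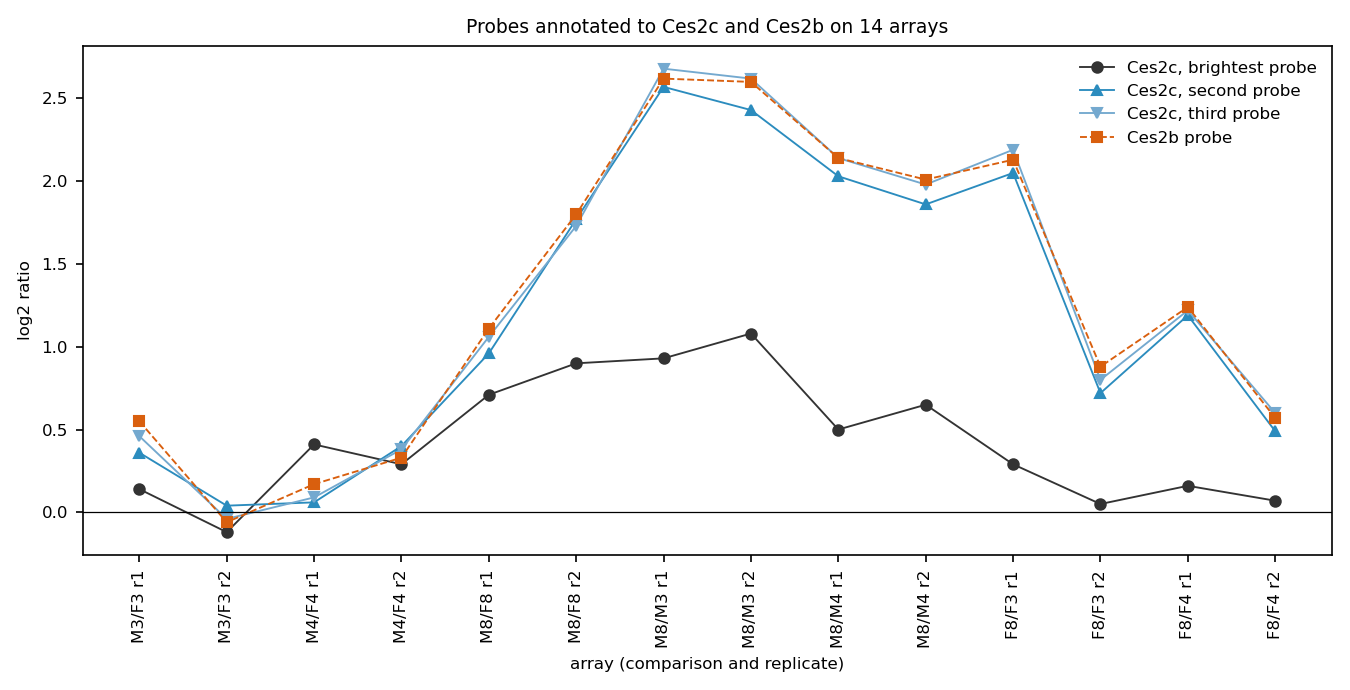
Log2 ratio (y axis) of the 3 probes annotated to Ces2c and of the Ces2b probe on each of the 14 arrays (x axis, comparison and replicate). The second and the third Ces2c probe run with the Ces2b probe, within 0.19 and 0.09 log2 on every array, and the brightest Ces2c probe stays below 1.1 log2 on M8/M3.

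Ces2e, another gene of that subfamily, was not called in any comparison with its brighter probe. Its M8/F8 ratios were 0.33 and 0.61 (1.39-fold, 95% interval 0.21 to 0.73, adjusted p = 0.0301), and its F8/F3 ratios were -0.26 and -0.66 (mean -0.46, adjusted p = 0.0326). All 6 arrays of M against F were above 0 and all 8 arrays of an older against a younger group were below 0. The second Ces2e probe gave 0.47 and 0.74 in M8/F8 and was called (1.52-fold, adjusted p = 0.0117). F8 pools were the lowest, at -0.40 and -0.51, and the M3 and M4 pools were the highest and overlapped.

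The sequences before the start sites of these 3 genes, which are related and differ in their ratios, and of Ces3b are shown from the RefSeq promoter table (GRCm38.p6), which held 7 of the 10 members. Each runs from 250 bases upstream to the start site, in the direction of transcription, on the plus strand. Capitals mark matches to CCAAT and TATAAA on either strand. In global alignments Ces2a and Ces2c had 67% identity, Ces2a and Ces2e 57.3%, and Ces2c and Ces2e 54.4%, compared with 47.4% to 50.7% for each of these with Ces3b.

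Ces2a, chr8:104733753-104734002: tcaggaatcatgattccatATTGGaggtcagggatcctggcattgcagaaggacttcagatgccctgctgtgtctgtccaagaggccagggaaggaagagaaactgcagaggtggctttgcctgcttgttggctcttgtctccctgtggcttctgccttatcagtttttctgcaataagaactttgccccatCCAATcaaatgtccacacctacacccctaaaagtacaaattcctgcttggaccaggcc
Ces2c, chr8:104846818-104847067: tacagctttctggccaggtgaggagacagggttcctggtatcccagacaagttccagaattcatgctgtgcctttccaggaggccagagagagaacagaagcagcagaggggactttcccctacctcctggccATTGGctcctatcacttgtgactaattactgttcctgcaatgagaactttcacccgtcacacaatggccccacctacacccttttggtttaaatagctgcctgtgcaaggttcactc
Ces2e, chr8:104926010-104926259: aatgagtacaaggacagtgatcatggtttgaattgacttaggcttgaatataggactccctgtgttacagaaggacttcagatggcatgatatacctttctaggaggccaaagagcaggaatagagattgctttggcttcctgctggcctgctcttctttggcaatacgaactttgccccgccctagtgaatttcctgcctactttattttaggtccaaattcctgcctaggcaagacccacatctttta
Ces3b, chr8:105083505-105083754: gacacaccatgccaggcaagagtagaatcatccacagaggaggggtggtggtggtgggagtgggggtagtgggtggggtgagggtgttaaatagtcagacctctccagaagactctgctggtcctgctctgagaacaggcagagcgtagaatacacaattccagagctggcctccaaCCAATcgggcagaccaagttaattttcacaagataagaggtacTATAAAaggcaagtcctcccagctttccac

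Of the 7 members in the table, CCAAT was found on either strand in Ces1c, Ces1g, Ces2a, Ces2c and Ces3b, and in 33.8% of the 32,851 promoters of the table over the same 250 bases. TATAAA was found in Ces3b, from base -30 to base -25, in Ces1g on the opposite strand, from base -26 to base -21, and in 12.4% of promoters. Neither the STAT5 motif TTCNNNGAA, present in 7.02% of promoters, nor the HNF4 motif CAAAGTCCA, present in 0.384%, matched within these 250 bases of any of the 7 members in the table. These are matches of letters in a short window and no record of binding.

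Ces1e, Ces1f, Ces1c, Ces1d and Ces1g belong to the first subfamily. Ces1e is egasyn, which retains beta-glucuronidase in the endoplasmic reticulum. Its M3/F3 ratios were 0.55 and 0.05, its M4/F4 ratios 0.73 and 0.50, and its M8/F8 ratios 1.00 and 0.96. The M/F ratio was above 0 on all 6 arrays and largest at 8 wk (1.97-fold, adjusted p = 0.00443). The call in M4/F4 (1.53-fold, adjusted p = 0.0264) was lost without either M4/F4 array (0.49, adjusted p = 0.214, without replicate 1, and 0.74, adjusted p = 0.0752, without replicate 2), and adjusted p was 0.107 when adjusted within that comparison. It was also lost, at adjusted p from 0.0509 to 0.0526, without either array of M8/M3 or of M8/M4. In M8/M3 Ces1e was 2.41-fold higher (1.31 and 1.24, adjusted p = 0.00163) and in F8/F3 1.44-fold (0.71 and 0.33, adjusted p = 0.0464). The interaction of 0.75 did not pass the test (adjusted p = 0.0889, 95% interval 0.29 to 1.2), but it was called with the replicate block (adjusted p = 0.0332) and with 6 group means (adjusted p = 0.00291).

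Ces1f, described as a triacylglycerol hydrolase, was called up regulated with age in both sexes. The M8/M3 ratios were 1.48 and 1.60 (2.91-fold, adjusted p = 0.000193) and the F8/F3 ratios 1.34 and 1.06 (2.30-fold, adjusted p = 0.000411). All 4 arrays were above 1. Between 4 and 8 wk the M8/M4 ratios were 0.52 and 0.72 (1.54-fold, adjusted p = 0.00455) and the F8/F4 ratios 0.78 and 0.79 (1.72-fold, adjusted p = 0.00184). The interaction was 0.34 for 3 to 8 wk (95% interval 0.05 to 0.63, adjusted p = 0.199) and -0.16 for 4 to 8 wk (95% interval -0.45 to 0.12, adjusted p = 0.65). Ces1f differed between the sexes in M4/F4 (0.65 and 0.62, 1.55-fold, adjusted p = 0.00422) and, below the fold threshold, in M8/F8 (0.44 and 0.55, 1.41-fold, adjusted p = 0.0107). Its pools fell in the order M8, F8, M4, F4, M3, F3, from 0.90 and 0.97 in M8 to -0.86 and -0.66 in F3, with no overlap between neighbours.

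Ces1c is a secreted esterase of mouse plasma, and Ces1d is the triacylglycerol hydrolase that mobilizes stored lipid for very low density lipoprotein. Both had their lowest level in M8 liver. Ces1c gave M8/F8 ratios of -0.64 and -1.05 and M8/M3 ratios of -0.79 and -0.92. It was 1.79-fold lower in M8 than in F8 (adjusted p = 0.00332) and 1.81-fold lower than in M3 (adjusted p = 0.00309). Ces1d gave M8/F8 ratios of -0.59 and -0.81 (1.63-fold lower, adjusted p = 0.0024) and M8/M3 ratios of -0.73 and -0.93 (1.78-fold lower, adjusted p = 0.00128). All 8 arrays were below 0. Without M8/F8 replicate 2 the M8/F8 value of Ces1d was -0.54 and short of the fold threshold (adjusted p = 0.0197).

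In females the ratios of both genes with age lay closer to 0. The F8/F3 ratios were -0.41 and -0.10 for Ces1c and -0.27 and -0.26 for Ces1d, neither of which passed the test (adjusted p = 0.189 and 0.0875). The interaction for 3 to 8 wk was -0.60 for Ces1c (adjusted p = 0.0872) and -0.57 for Ces1d (adjusted p = 0.0482, short of the fold threshold). It was called for Ces1c with 6 group means (-0.65, adjusted p = 0.00149) and for Ces1d with normexp and loess (-0.71, adjusted p = 0.0314). In M8 the pools of Ces1c lay at -0.58 and -0.75 and those of Ces1d at -0.48 and -0.68, below the M4 pools, at -0.19 and -0.24 and at -0.16 and -0.13. Ces1d, which was down regulated in M8/M3 and in M8/F8, is the direct neighbour of Ces1e, which was up regulated in both.

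Ces1g, whose loss in mice leads to fatty liver, was not called in any comparison. Its M8/F8 ratios of 0.29 and -0.23 lay on both sides of 0 (mean 0.03, 95% interval -0.38 to 0.44). The ratios with age were below 0 on all 8 arrays, with means of -0.59 in M8/M3 (95% interval -1.0 to -0.19, adjusted p = 0.0676) and -0.60 in F8/F4 (95% interval -1.01 to -0.19, adjusted p = 0.0667). Several alternatives called both, with adjusted p from 0.00796 to 0.0389 under group means, the replicate block, normexp or a fit of bright probes alone. The pools of M3, F4, M4 and F3 overlapped in their order, and so did those of M8 and F8 below them.

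**Figure D4:**
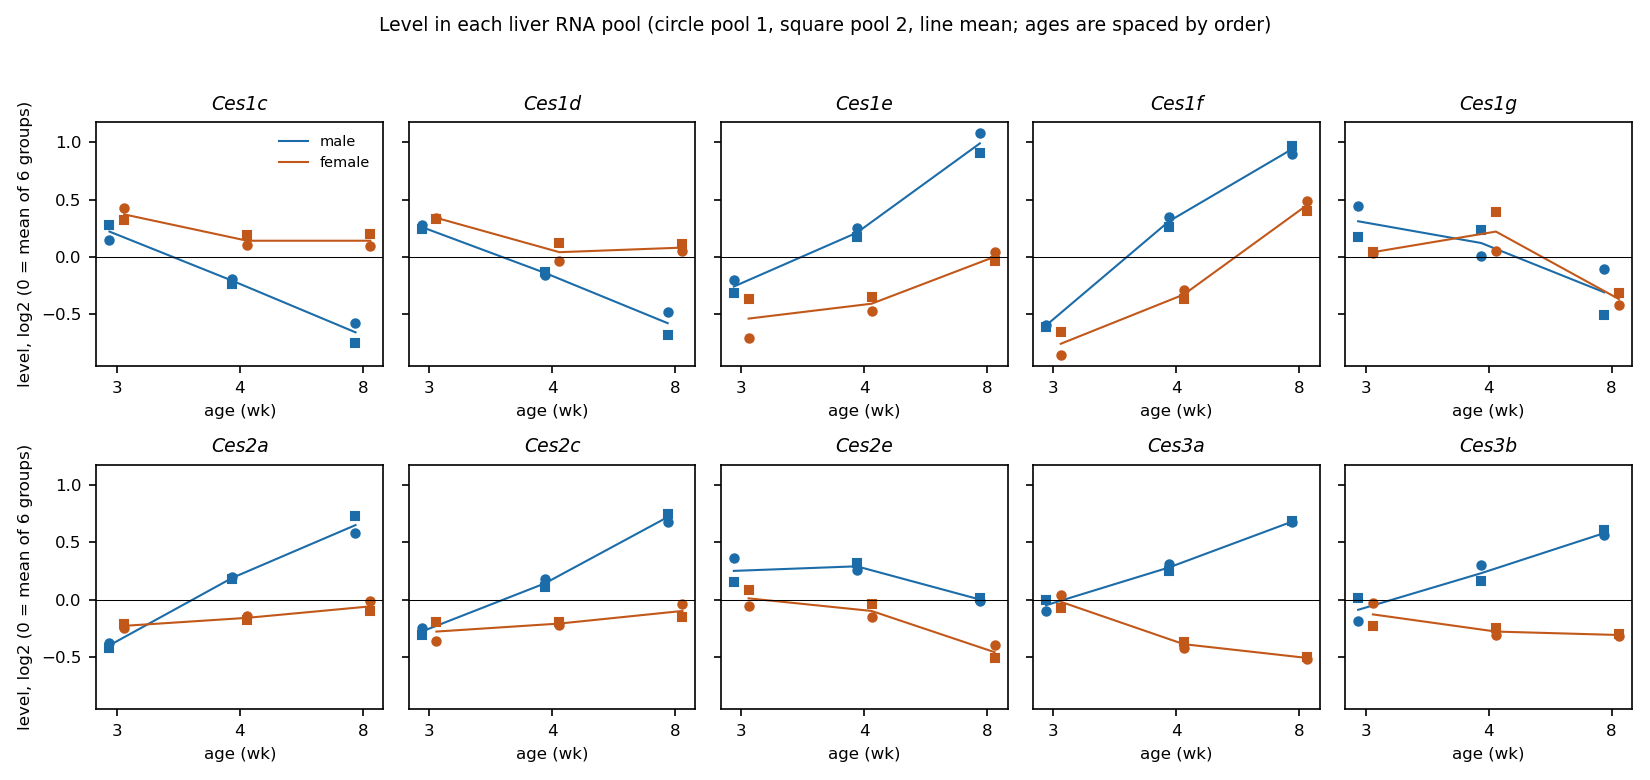
Level of each carboxylesterase in the 2 RNA pools of each group (y axis, log2 relative to the mean of the 6 groups) by age (x axis, wk) in males (blue) and females (orange). The M8 pools are the highest for Ces1e, Ces1f, Ces2a, Ces2c, Ces3a and Ces3b and the lowest for Ces1c and Ces1d, and male and female lines overlap for Ces1g.

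Members were also set beside each other over the 14 oriented ratios, which share pools and so are a description without a test. Pearson's r was 0.95 for Ces1e with Ces2c and for Ces2a with Ces2c, 0.91 for Ces1c with Ces1d, 0.90 for Ces3a with Ces3b, and -0.92 for Ces1c with Ces2a and with Ces2c. Ces1e, the neighbour of Ces1d, thus ran with genes of another subfamily. The brightest Ces2c probe differed from the Ces2a probe by a median of 0.05 log2, and the Ces1c probe from the Ces1d probe by 0.14. Whether probes of such close paralogues recorded separate transcripts was not tested, so these r values may not compare separate genes. Among 12,852 other genes, the ratios most like those of Ces2c belonged to Enpp3, an ectonucleotide pyrophosphatase (r = 0.977), those most like Ces2a to the zinc transporter Slc39a11 (r = 0.97), and those most like Ces1c to the neurotrophin receptor Ntrk2 (r = 0.955). For Ces1f the second most alike was Abcc3 (r = 0.952), an export pump for organic anions of the hepatocyte, and for Ces3a the most alike was the coactivator Crtc3 (r = 0.968).

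The other carboxylesterases were examined as a list of 10 genes, of which 7 had a probe, and Ces2f and Ces5a were not well above background on both arrays of any group. Of the 5 that were tested in M8/F8, Ces2b and Ces4a were higher in males and Ces1b was lower (-0.52 and -0.85, 1.61-fold lower, adjusted p = 0.00873), beside 6.31% of all tested probes. The call of Ces1b was lost without M8/F8 replicate 2 (adjusted p = 0.089), and that of Ces2b without replicate 1 or 2 of M8/F8 (adjusted p = 0.0608 and 0.136). Ces1b thus lay on the side of Ces1c and Ces1d, and over the 14 arrays its probe differed from that of Ces1c by a median of 0.10 log2. Ces2g was down regulated in M8/M3 (-0.63 and -0.56, 1.51-fold, adjusted p = 0.0329), where 16.8% of probes were called, a call that was lost without either M8/M3 array (adjusted p = 0.225 and 0.113) and without any single array of M4/F4 or M8/M4 or F8/F4 replicate 1, and Ces1a was called in no comparison.

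Ces4a, next to the Ces3 genes in the annotation apart from a predicted gene, had the largest sex difference of the family. Its M8/F8 ratios were 3.53 and 2.57 (8.27-fold, SE = 0.40 log2, adjusted p = 0.00352), compared with -1.11 and -0.19 in M3/F3. The direction on these 4 arrays was male at 8 wk and female at 3 wk, though the latter did not pass the test (adjusted p = 0.385). In females Ces4a fell with age (F8/F3 -3.44 and -2.85, 8.85-fold lower, adjusted p = 0.00312), and in males M8/M3 was 0.61 and -0.51 (mean 0.05, 95% interval -0.89 to 0.99). The interaction was 3.20 (SE = 0.56, adjusted p = 0.0287), and its adjusted p was 0.055 to 0.148 when any single array of M8/M3 (replicate 1), M8/M4, F8/F3 or F8/F4 was left out. The male value at 8 wk was above that at 4 wk (M8/M4 1.83 on both arrays, adjusted p = 0.0249), a call that was lost without either M8/M4 array (adjusted p = 0.156 and 0.136) or without F8/F4 replicate 1 (adjusted p = 0.0502).

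Of 21 other ester and lipid hydrolases of liver, all with a probe, 20 were tested in M8/F8 and 3 were called, beside 6.31% of all tested probes. Bche, which encodes butyrylcholinesterase, was lower in males (-1.49 and -1.06, adjusted p = 0.00182), as was the paraoxonase Pon1 (-0.50 and -0.79, adjusted p = 0.00982), and Abhd5, the coactivator of adipose triglyceride lipase, was higher (0.80 and 0.70, adjusted p = 0.00469). In M8/M3, 4 of 21 were called, a share close to the 16.8% of all tested probes. The hormone-sensitive lipase Lipe (1.01 and 1.17) and Ache were called higher, and Bche (-0.69 and -0.79) and the lipid droplet protein Pnpla3 (-2.98 and -3.59) were down regulated, with adjusted p from 0.00114 to 0.0146. No ratio is given for Ache, since its M3 signal was not well above background on both arrays, and its call was lost with normexp and loess (adjusted p = 0.122). Bche lost its M8/M3 call without replicate 1 or 2 of M8/M3 (adjusted p = 0.135 and 0.063). Lipe was also called in F8/F3 (0.87 and 0.99, adjusted p = 0.00207). With normexp and loess its values were 0.35 in M8/M3 (adjusted p = 0.0672), 0.58 in F8/F3 (adjusted p = 0.00647, short of the fold threshold) and 0.38 in F8/F4, and none of these was called. The median log2 ratio of this list was -0.14 for M8/F8 and 0.03 for M8/M3, compared with 0.60 and 0.73 for the members and 0.01 and 0.02 for all tested probes.

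Facts of the whole series bear on these values as follows. In a channel, 55.2% to 77.2% of spots were well above background and none was saturated. Ddx3y, Eif2s3y, Uty and Xist had the sign that the labelled sexes require on all 6 arrays of M against F. All 5 hepatocyte markers were measured and none was called in M3/F3, M4/F4 or M8/F8. In M8/F8, Alb (-0.57, adjusted p = 0.013), Cps1 (-0.52, adjusted p = 0.00351) and Tat (-0.41, adjusted p = 0.000886) were lower in males but short of the fold threshold, Apoa1 was at 0.40 (0.70 and 0.10, adjusted p = 0.056) and Ttr at 0.01, and the list had a summed log2 signal of 18.49 to 19.15 in M8 and 18.91 to 19.35 in F8. In M8/M3 albumin (Alb) was the 1 marker called (-1.10 and -0.33, adjusted p = 0.00553), a call that was lost without the dye term (adjusted p = 0.449) and without M8/M3 replicate 2 (adjusted p = 0.0635), while Cps1 was lower (-0.41, adjusted p = 0.00837) and Tat higher (0.33, adjusted p = 0.00197), both short of the fold threshold. Of 4 measured Kupffer cell and macrophage markers, Clec4f, Adgre1 and Marco were called lower in M8/F8, none of them without M8/F8 replicate 2 (Clec4f -0.36, Adgre1 -0.41 and Marco -0.89, with adjusted p = 0.17, 0.224 and 0.102), and the summed log2 signal of the list was 13.29 to 13.86 in M8, 13.99 to 14.57 in F8, 13.59 to 14.33 in M3 and 13.93 to 14.80 in F3. With age, Marco was called lower in males (M8/M3 -2.20) as well as females (F8/F3 -1.58), and Adgre1 in M8/M3 (-0.86, a call lost without M8/M3 replicate 2 at adjusted p = 0.0896) but not in F8/F3 (-0.37), with no interaction called for either (adjusted p = 0.265 and 0.249). Of 5 endothelial markers Lyve1 was called lower in M8/M3 (-1.20) and F8/F3 (-0.94), and of 5 bile duct markers Krt7 (-0.91) and Krt19 (-0.66) in M8/M3 and Sox9 in F8/F3. Lyve1, Krt7 and Krt19 lost their M8/M3 calls without M8/M3 replicate 1 (adjusted p = 0.108, 0.164 and 0.156), Krt19 also without replicate 2 (adjusted p = 0.0633) and Krt7 with the covariance of the shared pools (adjusted p = 0.134), and with normexp and loess Krt7 was at -0.26 (adjusted p = 0.128) and Krt19 at -0.39 (adjusted p = 0.0553). The F8/F3 calls were lost without replicate 1 or 2 of F8/F3 for Lyve1 (-1.17, adjusted p = 0.0636, and -0.70, adjusted p = 0.221) and for Sox9 (-0.69, adjusted p = 0.297, and -1.38, adjusted p = 0.0601), and for Sox9 also with the replicate block (adjusted p = 0.0547) and without any single array of M4/F4, M8/M4 or F8/F4. All 5 markers of dividing cells were lower in M8/M3 and in F8/F3 (medians -3.79 and -3.16), with a summed log2 signal of 13.50 to 14.13 in M3, 9.33 to 10.31 in M8, 12.91 to 14.18 in F3 and 9.52 to 10.68 in F8. Of 4 measured erythroid markers 3, among them Hba-a1, were called lower in M8/M3 and in F8/F3. Alas2, the erythroid enzyme of heme synthesis, was higher in M8/F8 (1.78 and 1.99, adjusted p = 0.000725) and in M8/M3 (1.33 and 1.41, adjusted p = 0.00229), with an interaction of 1.64 for 3 to 8 wk (adjusted p = 0.0134), which was lost without either M8/M3 array (adjusted p = 0.068 and 0.0758). The summed log2 signal of the erythroid list was 15.44 to 16.51 in M3, 15.09 to 15.73 in M8, 15.41 to 16.65 in F3 and 15.01 to 15.78 in F8. No marker of these lists was below background in every channel, and the part of these cells in the ratios of the carboxylesterases was not tested. In whole liver RNA, fewer cells of a type and less RNA per cell cannot be told apart.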

How the data were processed

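Liver RNA pools were compared on Agilent 4x44k mouse arrays. Per the file headers, the authors' Feature Extraction software subtracted background, applied linear and LOWESS dye normalization, and gave each spot a log10 ratio of red over green. Per the file headers, the scanner output holds deposited intensity values from that software: spot medians, and signals processed by background subtraction and dye normalization. Background calls used its well-above-background flags, and the marker sums used the processed signals. The medians were used only for the normexp alternative. Mean intensities were not used here. The ratios of the deposited log10 series table differed from the scanner output by 0 at most. The deposited log10 errors of the ratios were used only for the error-weighted alternative.

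Ratios were converted to log2 and oriented by dye. Probes were named through RefSeq accessions (26,055 of 39,429). In R 4.3.3 with limma 3.58.1 and data.table version 1.17.8, 7 comparison coefficients and a dye term were fitted to all probes, which left 6 residual degrees of freedom. This main fit, with its SE and p-values, treated the ratios as independent, although the ratio of pool to array variance was estimated at 4.58. Only the alternative with the covariance of the shared pools took that into account. The p-values were adjusted by Benjamini-Hochberg over all probes and comparisons, and within each interaction. The labels do not say which pool was on which array, and the replicate number was taken to mark the same pool in comparisons that share a group. Replicate differences of comparisons correlated at 0.15 to 0.69 where the shared group was on the same side of the ratio, at -0.56 to -0.44 where it was on the opposite side, and at -0.30 to 0.21 without a shared group. Replicates are separate pools of mice, and their number limits the precision. Members, lists and the naming rule (all members and other carboxylesterases, up to 4 called genes per list, nearest genes by r) were chosen with earlier results of these data known. The fit was tried on simulated ratios with changes planted in M8/F8 and M8/M3. That simulation did not examine the interactions, and it does not bear on the call of any single member. Alternatives changed the background correction, call rule, covariance, probes and arrays.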

Additional observations from a re-analysis of the deposited data

Results flagged for a closer look

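The change from 3 to 8 wk differed between males and females, by a test of the difference itself (M8/M3 minus F8/F3), for 4 carboxylesterases: Ces2a (0.88 log2, 95% interval 0.62 to 1.14), Ces2c (0.84, 0.53 to 1.15), Ces3a (1.24, 0.98 to 1.5) and Ces3b (0.93, 0.56 to 1.30). For Ces3a and Ces3b both male arrays were above 0 and both female arrays below it, while for Ces2a and Ces2c all 4 arrays were above 0. Ces3a was not called with the covariance of the shared pools (adjusted p = 0.059) or without the dye term (adjusted p = 0.073), and Ces2c was called by its brightest probe but not by the others (adjusted p = 0.156 and 0.178). Whether the brightest Ces2c probe and the Ces2a probe recorded separate transcripts was not tested. Ces2a, Ces2c and Ces3b lost their calls without M8/M3 replicate 2 or F8/F3 replicate 2, Ces2c and Ces3b also without M8/M3 replicate 1, and Ces3b also without F8/F3 replicate 1 or either F8/F4 array.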

How the results depend on the processing

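The members were refitted under 30 other settings. None of the called log2 ratios of a member changed sign, and of the values of a member under these settings 2,626 kept their side of the call, 42 gained a call and 32 lost it. These counts do not measure how firm the calls are, since many settings could not change a member's value. The series table equalled the scanner ratios, and the background filters could not act on probes well above background throughout. Settings of the dye term, the shared-pool covariance or the call rule left the log2 ratios and their signs as they were. A left-out array did not change the log2 ratios of the other comparisons. Without a fold threshold the members called rose to 5 in M4/F4, 9 in M8/F8, 7 in M8/M4 and 4 in F8/F3, beside 7.2%, 20.5%, 27% and 30.7% of all tested probes, so that the share in F8/F3 was near that of all probes. In F8/F4, 2 members instead of 1 were called with normexp and loess, with the replicate block, with 6 group means, with error-weighted means, and with a fit of bright probes alone, which was chosen after seeing the data, each time with Ces1g added. In F8/F3, 2 were called with the mean of all probes or with the second brightest probe, also chosen after seeing the data, with Ces2c added.

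Leaving out each array in turn gave 0 to 1 members in M3/F3, 2 to 3 in M4/F4, 5 to 7 in M8/F8, 7 to 9 in M8/M3, 0 to 2 in M8/M4, 1 to 2 in F8/F3, 1 to 2 in F8/F4, 1 to 4 for the 3 to 8 wk interaction and 0 to 0 for the 4 to 8 wk interaction. With the replicate block, the members called numbered 0, 3, 7, 9, 2, 1 and 2 in the 7 comparisons, and 5 and 0 for the interactions, with Ces1g added in M8/M3 and F8/F4 and Ces1e for the interaction, and no other call of a member changed. The cause of these changes was not tested. The 2 arrays per comparison limit the precision.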

Other observations

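Of 8 genes of very low density lipoprotein assembly, the pathway that Ces1d serves, Tm6sf2 was called in M8/F8 (-1.12 and -0.97, adjusted p = 7.46e-05), M8/M3 (-0.83 and -0.85) and M8/M4 (-0.76 and -0.89) and no other gene was called. One of 8 stands beside 6.31%, 16.8% and 10.1% of all tested probes in these comparisons, and is close to that background in M8/M3 and M8/M4. Tm6sf2, which takes part in the lipidation of these particles, was lower in M8 than in the 3 groups it was compared with. Ces1c and Ces1d had the same direction there, and a link between these genes was not tested.

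Of 7 genes of endoplasmic reticulum retention and glycoprotein folding, Kdelr3, a receptor that returns proteins to the reticulum, and Hspa5, its main chaperone, were called in all 4 age comparisons, beside 5.41% to 16.8% of all tested probes, and in no comparison of the sexes. Kdelr3 ratios were -1.15 and -1.57 in M8/M3 and -1.32 and -1.21 in F8/F3, and Hspa5 ratios were -1.22 and -0.93 in M8/M3 and -0.97 and -1.12 in F8/F3. Each lost 1 or more of these calls when an array was left out, among them Hspa5 in M8/M3 without M8/M3 replicate 1 (adjusted p = 0.0765) and Kdelr3 in F8/F4 without either F8/F4 array (adjusted p = 0.0832 and 0.0726). Of 7 transcription factors that act on carboxylesterase genes, the constitutive androstane receptor Nr1i3 alone was called, lower in M8/F8 (-0.50 and -0.74, adjusted p = 0.00383) and higher in F8/F3 (0.61 and 1.03, adjusted p = 0.00135), beside 6.31% and 10.8% of all tested probes. Its M8/F8 value was short of the fold threshold with the mean of all its probes (-0.57, adjusted p = 0.012).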
